A study of Mus musculus with 9 samples.

Results

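Cerebellins, the delta glutamate receptor gene Grid1 and the neurexin genes Nrxn2 and Nrxn3 were followed in cerebella of mice at postnatal day 5. The members were a fixed list of genes, Cbln1, Cbln2, Cbln3, Cbln4, Grid1, Nrxn2 and Nrxn3, each found through probe sets whose only gene symbol in the platform annotation was that name. All 7 were found, with 14 probe sets among them, out of 19147 genes measured. Where a gene had several probe sets, the one with the highest mean log2 intensity over the 9 arrays gave the main value and the others are shown beside it. Cbln1, Cbln2 and Cbln4 had 1 probe set each, Nrxn2 had 2, and Cbln3, Grid1 and Nrxn3 had 3 each.

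The 9 samples were total RNA of C57BL/6 mice, 1 custom Affymetrix array per sample, in 3 groups of 3: Wildtype, SmoA2 mutant and Smo/Smo mutant. The labels give the tissue as brain, and the design text describes cerebella at day 5. SmoA1 and SmoA2 are active variants of Smoothened, which relays the Sonic hedgehog signal from the membrane into the cell. In both mutant lines a transgene is driven by a fragment of the ND2 (Neurod2) promoter that is specific to granule neuron precursors, so the active receptor is directed to those cells. The third group has only the label Smo/Smo and is read here as the SmoA1 line, since the design text names no other. Smo/Smo mice carry animal codes of a different prefix, so the source of the animals and the genotype cannot be told apart in comparisons with Smo/Smo.

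Cerebellins are small secreted proteins of the C1q family. At the synapse between parallel fibres and Purkinje cells, cerebellin 1 released by granule neurons binds neurexin on the presynaptic side and a delta glutamate receptor on the postsynaptic side, and this bridge holds the synapse together. Neurexins are presynaptic adhesion molecules with many other partners, among them neuroligins, leucine-rich repeat proteins and neurexophilins. Granule neurons make Cbln1 and Cbln3 as they mature, whereas Cbln2 and Cbln4 are known mainly from neurons outside the granule layer and outside the cerebellum.

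The arrays correlated with each other at 0.994 to 0.998 across probe sets, and their median intensity lay between 91 and 95.1. The cerebellar markers Zic1 (log2 intensity 13.12 to 13.25), Pax6 (11.89 to 12.05) and Calb1 (12.67 to 13.04) were bright on every array, whereas the hindbrain Hox genes Hoxa2 (3.58 to 4.83) and Hoxb2 (3.35 to 4.20) were dim on every array. Wildtype replicate 3 stood apart in choroid plexus markers, whose summed intensity over 10 genes was 675 there, 4947 and 5338 in the other Wildtype arrays, 7231 to 8462 in SmoA2 and 9076 to 10529 in Smo/Smo. None of the 10 was called in either mutant against Wildtype, with 9 at an unadjusted p under 0.05 in limma and a median log2 fold change of 1.49 in SmoA2 and 1.83 in Smo/Smo. The lowest array weight in limma, 0.386, was that of SmoA2 replicate 3. Values without these arrays are given where a result rests on them. Nothing in the labels says how the mice were related, so the p-values measure the spread between these samples only. In whole tissue, fewer cells of a type and less RNA per cell cannot be told apart.

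Among the 7 genes, Cbln4 rose in SmoA2 and the other 6 had no call. A gene was called where its p in limma, adjusted by Benjamini-Hochberg over all 19147 genes in 1 fit of the 9 arrays, was under 0.05. In SmoA2 against Wildtype 1 of 7 genes was called higher and 0 lower, where 2.69% of all genes were called, 0.961% higher and 1.73% lower. In Smo/Smo against Wildtype 0 of 7 were called, against 0.371% of all genes. In SmoA2 against Smo/Smo 1 of 7 was called higher and 0 lower, against 2.56% of all genes, 1.02% higher and 1.54% lower. An unadjusted p under 0.05 in limma was found for 4, 2 and 2 of the 7 genes in these comparisons, in this order. Over all 19147 genes the counts were 2832, 1679 and 2741. The median log2 fold change of the 7 genes was -0.12, -0.085 and -0.065 in these comparisons, beside 0.006, 0.006 and -0.003 over all genes.

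**Figure D1:**
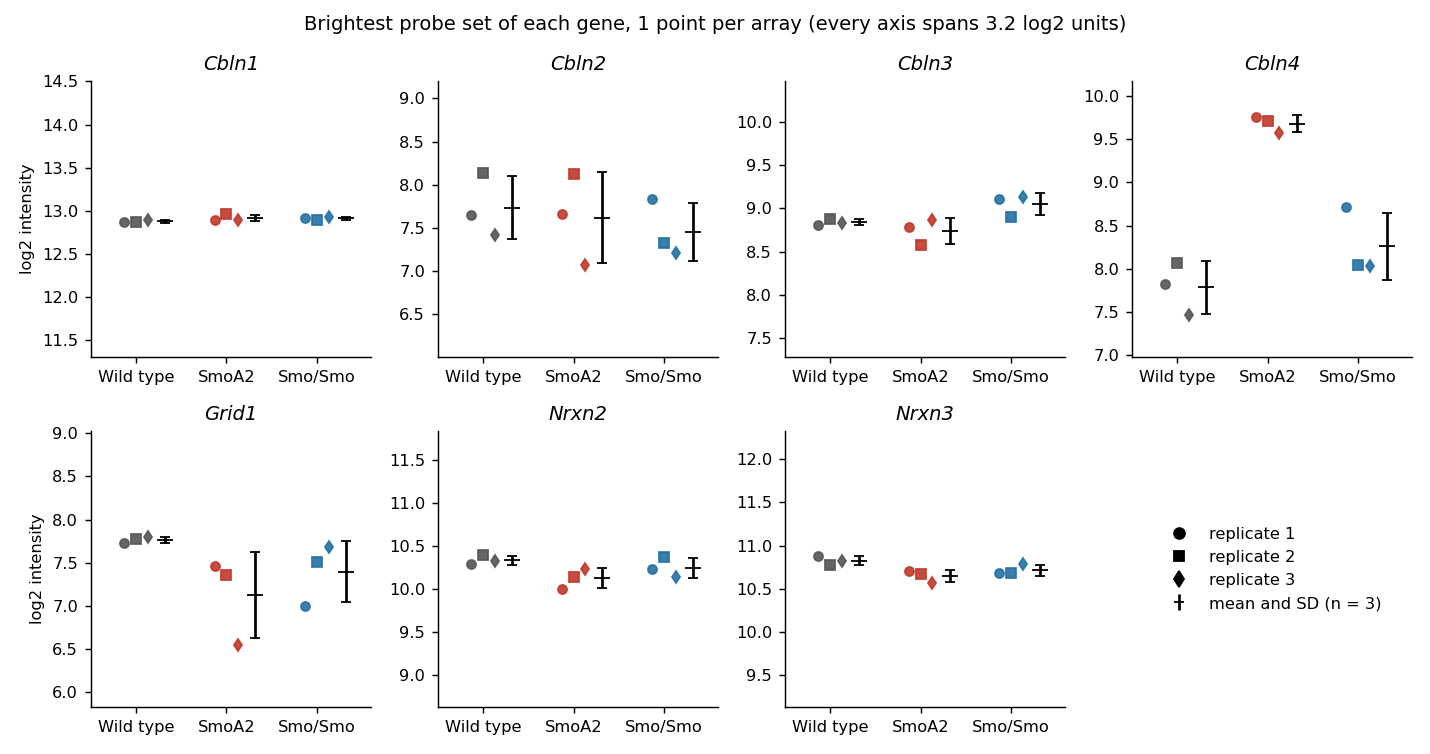
Log2 intensity of the brightest probe set of each of the 7 genes in the 3 groups, with 1 point per array (shape gives the replicate) and the mean and SD of 3 arrays in black. Each vertical axis spans the same range, so the distances can be compared: the SmoA2 arrays of Cbln4 lie at 9.57 to 9.76, above every other array, while those of Cbln1 all lie between 12.87 and 12.96.

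Cbln4 encodes a secreted cerebellin that binds neurexins. Its log2 intensity was 7.82, 8.07 and 7.46 in Wildtype replicates 1, 2 and 3, 9.76, 9.71 and 9.57 in SmoA2, and 8.71, 8.04 and 8.03 in Smo/Smo. The SmoA2 arrays lay above all others and close together, while the Smo/Smo arrays overlapped the upper end of Wildtype, with replicate 1 the highest of them. The group means were 7.78 ± 0.30 in Wildtype, 9.68 ± 0.10 in SmoA2 and 8.26 ± 0.39 in Smo/Smo (SD, n = 3 each).

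Cbln4 was thus 3.73-fold higher in SmoA2 than in Wildtype (log2 fold change 1.90 ± 0.20, SE, 95% interval 1.45 to 2.34, limma adjusted p = 0.00145). It stood at rank 10 by fold among the 184 genes called higher in that comparison. Against Smo/Smo the difference was 2.68-fold (log2 fold change 1.42 ± 0.20, 95% interval 0.97 to 1.87, adjusted p = 0.00774). Smo/Smo against Wildtype gave 0.48 ± 0.20, with a 95% interval of 0.033 to 0.92, an unadjusted p of 0.0379 in limma and an adjusted p of 0.532, and was not called. The 3 comparisons use the same 9 arrays, so they are not independent of one another. The call in SmoA2 against Wildtype held whichever of the 9 arrays was omitted (log2 fold change 1.74 to 2.04, adjusted p 4.989e-04 to 0.00911). The call against Smo/Smo held in each of them as well (1.31 to 1.64, adjusted p 0.00369 to 0.0403). Wildtype replicate 3, the array with few choroid plexus transcripts, was also the lowest in Cbln4, and without it SmoA2 stood at 1.74 (adjusted p = 0.00611) and Smo/Smo at 0.32 (adjusted p = 0.703) against Wildtype. Without Smo/Smo replicate 1, its highest array, Smo/Smo stood at 0.26 (adjusted p = 0.804).

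The sequence before the Cbln4 start site is shown because Cbln4 is the member that was called. RefSeq's table for GRCm38.p6 held promoters for 3 of the 7 genes: Cbln3, Cbln4 and Nrxn3. The 250 bases before the annotated start of Cbln4 lie at chr2:172043467-172043716 on the minus strand and are 60.8% G and C. They read 5′ to 3′, with the matches to the GC box in capitals:
Cbln4: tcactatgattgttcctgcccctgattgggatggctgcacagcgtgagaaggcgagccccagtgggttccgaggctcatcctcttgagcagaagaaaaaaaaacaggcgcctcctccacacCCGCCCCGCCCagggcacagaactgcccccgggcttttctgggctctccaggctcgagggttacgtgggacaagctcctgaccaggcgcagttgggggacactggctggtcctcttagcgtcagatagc
The GC box GGGCGG, the letters bound by Sp factors, was searched on both strands and matched 2 times, beginning 129 and 124 bases before the start, the matches sharing a base. It occurs in 32.7% of all 32851 promoter windows of this length. The Gli motif GACCACCCA did not occur in this window, and 0.225% of all windows hold it. The E-box forms CAGCTG and CATCTG, in 13% and 14.4% of windows, and TATAAA, in 12.4%, did not occur in it either. These are letter matches in 1 window and no statement about which factors bind there.

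Over the 9 arrays, the patterns most like that of Cbln4 among 11445 genes with a mean log2 intensity of at least 6 were those of Akna (Pearson r = 0.982), Adcyap1 (0.981) and Foxo6 (0.974). Akna, which encodes a centrosomal protein, rose in SmoA2 by 1.03 on the log2 scale (limma adjusted p = 5.057e-04). Adcyap1, the gene of the neuropeptide PACAP, rose by 0.98 (adjusted p = 0.00707). Foxo6, a forkhead transcription factor gene, rose by 0.63 (adjusted p = 0.00679). None of these 3 was called in Smo/Smo, where the log2 fold changes were 0.34, 0.16 and 0.16. The arrays share the same groups, so these correlations describe the pattern only and carry no p. The 3 genes were picked for their likeness to Cbln4 on these arrays. Their rise in SmoA2 and its adjusted p therefore follow from that choice and are no separate evidence.

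A few markers of other cells rose in SmoA2 beside Cbln4, and their part in its rise was not tested. Over all genes, 0.961% were called higher and 1.73% lower in SmoA2 against Wildtype. Of 12 measured brainstem and midbrain markers, 3 were called higher and 0 lower in SmoA2 against Wildtype, with a median log2 fold change of 0.38. Of the 12 fold changes 9 were above 0 and 3 below, the lowest at -0.57. Without overlap, 4 of these genes lay above Wildtype and 2 below, where 8.89% of all genes lay above and 10.2% below. The called genes are named next. Those called were Isl1, Pou4f1 and Foxa2, of which Isl1 was also called in Smo/Smo. Isl1, a LIM homeodomain factor gene of motor and sensory neurons, stood at 5.79 to 6.15 in Wildtype, 8.75 to 9.23 in SmoA2 and 7.16 to 7.34 in Smo/Smo. Pou4f1, a sensory neuron factor gene, stood at 4.32 to 5.23, 6.88 to 7.08 and 4.93 to 5.46. The summed intensity of the 12 genes was 1039 to 1186 in Wildtype, 1729 to 1778 in SmoA2 and 1166 to 1496 in Smo/Smo. The hindbrain Hox genes of the list were dim in every group. Of 11 granule neuron progenitor markers, 4 were called higher and 0 lower in SmoA2, Ccnd1, Sfrp1, Atoh1 (log2 fold change 0.82 ± 0.073, adjusted p = 7.033e-04) and the hedgehog target Gli1 (0.50 ± 0.073, adjusted p = 0.00801), with summed intensities of 39804 to 41222 in Wildtype, 41325 to 44200 in SmoA2 and 40762 to 42952 in Smo/Smo. The list did not move as 1, since 6 of the 11 fold changes were above 0 and 5 below, and 3 of these genes lay below Wildtype without overlap. Of 8 markers of cerebellar nuclei and unipolar brush cells, 0 rose and 1 fell, Tbr1 (-0.62 ± 0.12, adjusted p = 0.0244), with sums of 6272 to 6506, 6143 to 6652 and 5907 to 7125.

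**Figure D2:**
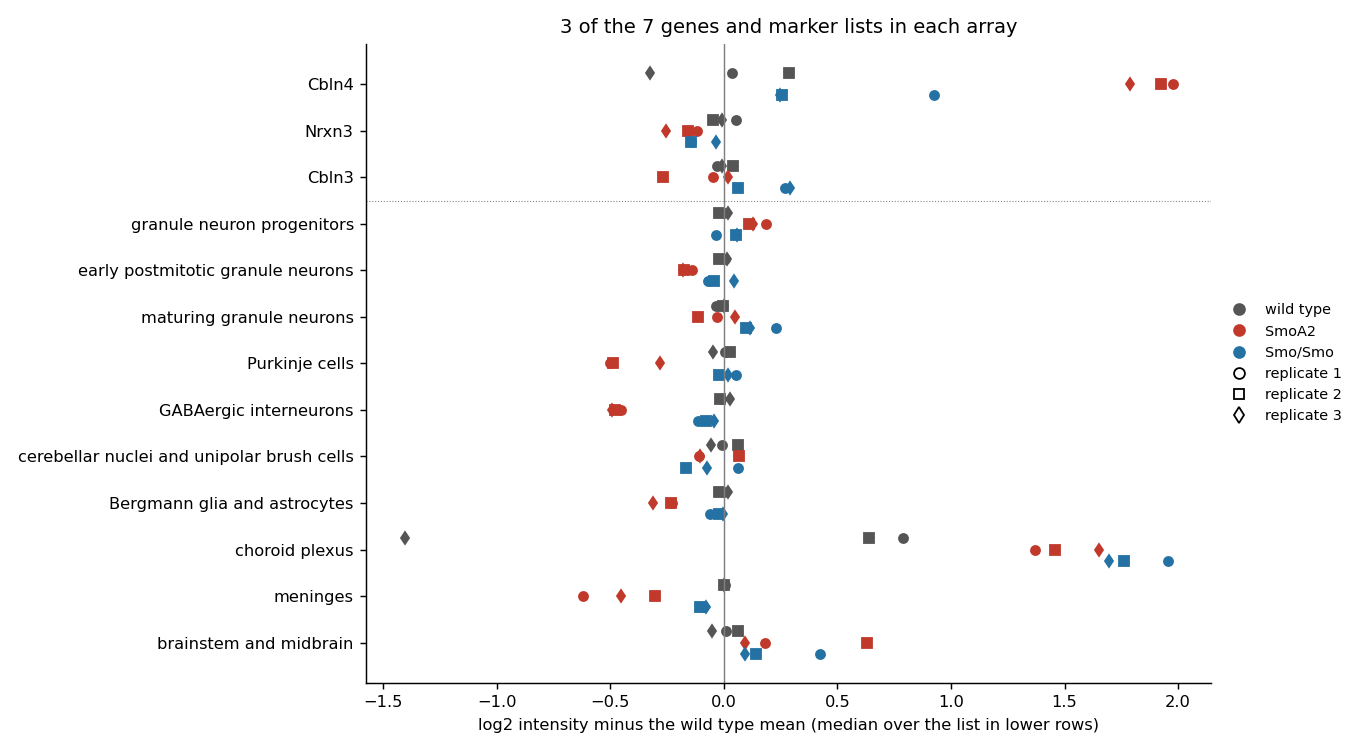
Log2 intensity minus the Wildtype mean in each array for Cbln4, Nrxn3 and Cbln3 (upper rows) and the median of that difference over the measured genes of each marker list (lower rows). Colour gives the group and shape the replicate. The GABAergic interneuron list lies at -0.45 to -0.49 in the SmoA2 arrays, and the choroid plexus list at -1.41 in Wildtype replicate 3.

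Cbln1, the cerebellin that granule neurons supply to Purkinje cell synapses, differed little between groups. Its log2 intensity was 12.87, 12.87 and 12.90 in Wildtype, 12.90, 12.96 and 12.90 in SmoA2, and 12.92, 12.89 and 12.93 in Smo/Smo. The groups of SmoA2 and Wildtype touched without crossing, at a distance smaller than the second decimal. The log2 fold change was 0.044 ± 0.050 in SmoA2 (95% interval -0.069 to 0.16, adjusted p = 0.739) and 0.032 ± 0.050 in Smo/Smo (-0.081 to 0.15, adjusted p = 0.916). In folds, the interval for SmoA2 ran from 0.953 to 1.12. The probe set was brighter than 99.5% of those that stood for a gene, and how far the signal of so bright a probe set still follows the amount of RNA was not tested. The genes most like it over the 9 arrays were Trib2 (Pearson r = 0.885), Gapdh (0.881) and Hoxb5os (0.876).

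Cbln3, a cerebellin of granule neurons that forms complexes with cerebellin 1, was higher on the Smo/Smo arrays without a call. On its main probe set the log2 intensity was 8.81, 8.88 and 8.83 in Wildtype, 8.79, 8.57 and 8.86 in SmoA2, and 9.11, 8.90 and 9.13 in Smo/Smo. Smo/Smo lay above both other groups, and SmoA2 overlapped Wildtype. The log2 fold change was 0.21 ± 0.090 in Smo/Smo against Wildtype (95% interval 0.002 to 0.41, adjusted p = 0.569) and -0.31 ± 0.090 in SmoA2 against Smo/Smo (-0.51 to -0.10, adjusted p = 0.136). In SmoA2 against Wildtype it was -0.10 ± 0.090 (-0.30 to 0.10, adjusted p = 0.657), and -0.018 (adjusted p = 0.946) without SmoA2 replicate 2, the lowest array.

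The other Cbln3 probe sets did not move in 1 way. Probe set 2, at a mean of 6.58 in Wildtype, gave -0.016 ± 0.13 in Smo/Smo against Wildtype. Probe set 3, dim at a mean of 4.97 in Wildtype, gave 0.38 ± 0.13, with the groups not overlapping (adjusted p = 0.409 with every probe set tested). Among the 3 genes most like Cbln3 over the arrays, beside Frmpd3 (Pearson r = 0.949) and Igfbp1 (0.928), was Gabra6 (0.925), the GABA receptor subunit gene of mature granule neurons. Gabra6 itself, at -0.54 in SmoA2 and 0.66 in Smo/Smo, was not called, and its lowest array, at 5.86, was SmoA2 replicate 2, the lowest also in Cbln3. Of 11 markers of maturing granule neurons, 1 was called higher and 0 lower in each mutant against Wildtype, in both cases Grin2c, an NMDA receptor subunit gene (0.64 ± 0.082, adjusted p = 0.0045, and 0.71 ± 0.082, adjusted p = 0.0102). Over all genes, 0.961% were called higher in SmoA2 and 0.214% in Smo/Smo. The summed intensity of the 11 markers was 12682 to 13183 in Wildtype, 11614 to 12426 in SmoA2 and 13183 to 13787 in Smo/Smo. The part of maturing granule neurons in the Cbln3 values was not tested.

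Cbln2, a cerebellin of neurons outside the granule layer, varied more within the groups than between them. Its log2 intensity was 7.65, 8.14 and 7.42 in Wildtype, 7.66, 8.12 and 7.07 in SmoA2, and 7.83, 7.32 and 7.21 in Smo/Smo, so that the 3 groups overlapped. The SDs were 0.37, 0.52 and 0.33. The log2 fold change was -0.12 ± 0.28 in SmoA2 (95% interval -0.76 to 0.51) and -0.28 ± 0.28 in Smo/Smo (-0.92 to 0.35), with adjusted p of 0.886 and 0.848. Omitting 1 array moved the Smo/Smo value between -0.47 (without Smo/Smo replicate 1) and -0.082 (without Wildtype replicate 2). A change of 1.42-fold upward or to 0.592-fold in SmoA2 lies within the interval, so these arrays do not settle whether Cbln2 differed. Its nearest patterns over the 9 arrays were those of Zcchc12 (Pearson r = 0.984), Rasgrf2 (0.978) and Mblac2 (0.971), none of them called in either mutant.

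**Figure D3:**
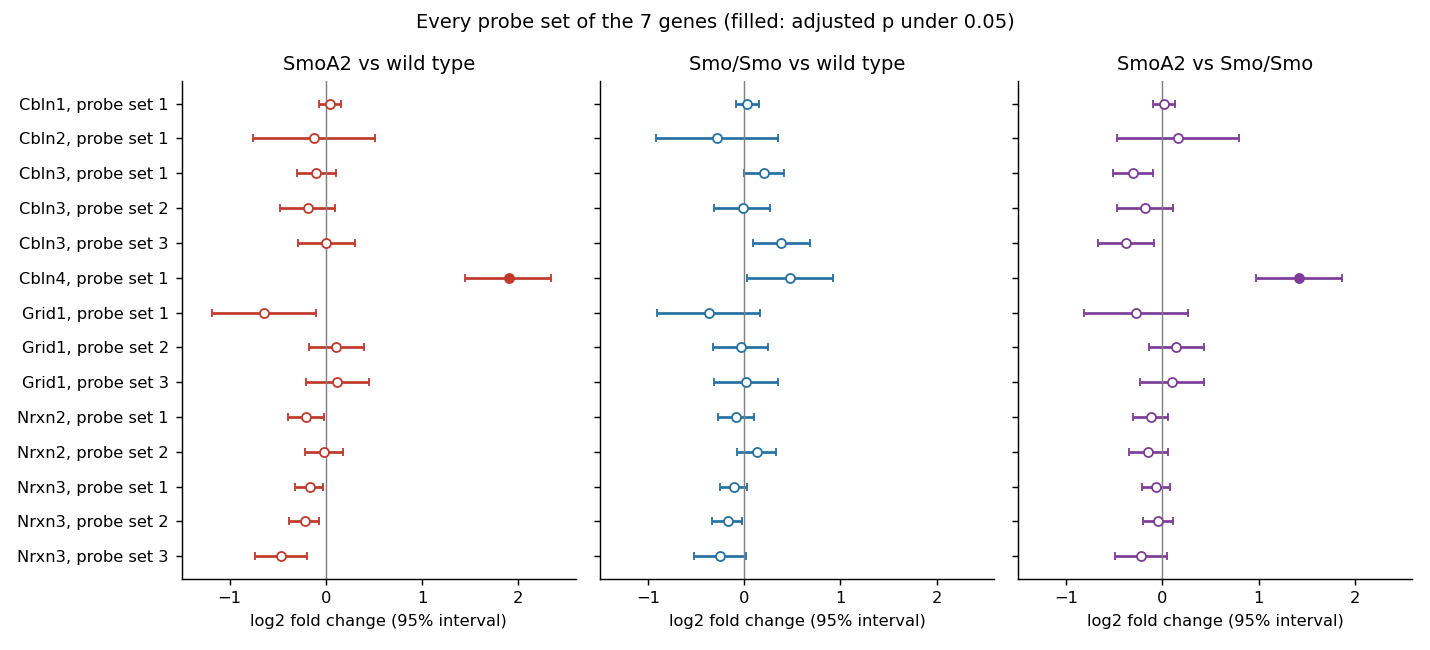
Log2 fold change of each of the 14 probe sets in the 3 comparisons, with 95% intervals from limma, where probe set 1 is the brightest of its gene. Filled points have an adjusted p under 0.05: only Cbln4 does, in SmoA2 against Wildtype (1.90) and against Smo/Smo (1.42).

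Grid1, a delta receptor gene, encodes a postsynaptic protein that binds cerebellins through its outer part. Its main probe set read 7.73, 7.77 and 7.80 in Wildtype, 7.46, 7.36 and 6.55 in SmoA2, and 7.0, 7.51 and 7.68 in Smo/Smo. Every mutant array lay below every Wildtype array, and the lowest values came from 1 array of each mutant group, SmoA2 replicate 3 and Smo/Smo replicate 1. The log2 fold change was -0.64 ± 0.24 in SmoA2 (95% interval -1.18 to -0.10, unadjusted p = 0.0253 and adjusted p = 0.249 in limma) and -0.37 ± 0.24 in Smo/Smo (-0.91 to 0.17, adjusted p = 0.74). Without SmoA2 replicate 3 the difference in SmoA2 was -0.35 (adjusted p = 0.414), and without Smo/Smo replicate 1 the difference in Smo/Smo was -0.17 (adjusted p = 0.967).

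The dimmer Grid1 probe sets did not show this difference. Probe set 2 read 6.09, 6.30 and 5.92 in Wildtype and 6.12, 6.38 and 6.14 in SmoA2, a log2 fold change of 0.11 ± 0.13 (95% interval -0.18 to 0.40). Probe set 3 read 5.76, 6.23 and 5.77 in Wildtype and 5.96, 5.88 and 6.27 in SmoA2, a log2 fold change of 0.12 ± 0.15 (-0.21 to 0.45). With the mean of the 3 probe sets Grid1 gave -0.14 ± 0.12 in SmoA2 (adjusted p = 0.668). The patterns nearest to that of the main probe set were those of Dlg3 (Pearson r = 0.99), a scaffold gene of glutamate synapses, Cry2 (0.976) and Fryl (0.97). Their log2 fold changes in SmoA2 were -0.11, -0.18 and -0.17, and none was called. RefSeq places Grid1 and Cbln3 on chromosome 14 in GRCm38.p6.

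Nrxn3 encodes a presynaptic neurexin. Its main probe set read 10.88, 10.78 and 10.82 in Wildtype, 10.71, 10.67 and 10.57 in SmoA2, and 10.68, 10.68 and 10.79 in Smo/Smo. SmoA2 lay below Wildtype on this probe set, as on the other 2, while Smo/Smo overlapped Wildtype here. Probe set 2 read 10.18, 10.12 and 10.22 in Wildtype and 10.02, 10.003 and 9.82 in SmoA2. Probe set 3 read 5.88, 5.83 and 6.10 in Wildtype and 5.60, 5.58 and 5.23 in SmoA2. The 3 probe sets of a gene share their arrays and are not replicates of one another.

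The log2 fold change of Nrxn3 in SmoA2 was -0.17 ± 0.063 on the main probe set (95% interval -0.32 to -0.031, adjusted p = 0.231), -0.22 ± 0.069 on probe set 2 (adjusted p = 0.17) and -0.47 ± 0.12 on probe set 3 (adjusted p = 0.0915). None of these was called, nor was the mean of the probe sets at -0.29 ± 0.076 (adjusted p = 0.0925). In Smo/Smo the same probe sets gave -0.11 ± 0.063, -0.17 ± 0.069 and -0.25 ± 0.12, also without a call. SmoA2 against Smo/Smo gave -0.065 ± 0.063 on the main probe set, with a 95% interval of -0.21 to 0.077. The nearest pattern was that of the integrin gene Itgb3 (Pearson r = 0.977), followed by Kdm2b (0.96) and Gtpbp2 (0.959).

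Nrxn2 also encodes a presynaptic neurexin. Its main probe set read 10.29, 10.39 and 10.32 in Wildtype, 10, 10.14 and 10.23 in SmoA2, and 10.23, 10.37 and 10.14 in Smo/Smo. SmoA2 lay below Wildtype without overlap, and Smo/Smo overlapped both. The log2 fold change was -0.21 ± 0.082 in SmoA2 (95% interval -0.39 to -0.024, adjusted p = 0.273) and -0.085 ± 0.082 in Smo/Smo (-0.27 to 0.10, adjusted p = 0.846). Probe set 2 gave -0.018 ± 0.089 in SmoA2 (-0.22 to 0.18) and 0.13 ± 0.089 in Smo/Smo (-0.072 to 0.33), so the lower value in SmoA2 was seen on 1 of the 2 probe sets. The nearest patterns were those of Gpr162 (Pearson r = 0.976), the spectrin gene Sptbn1 (0.975) and Grina (0.961).

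By main probe set, the SmoA2 and Wildtype groups did not overlap in 5 of the 7 genes, 2 higher and 3 lower, where 19.1% of all genes were separated in this way, 8.89% higher and 10.2% lower. The higher ones were Cbln1 and Cbln4, and the lower ones Grid1, Nrxn2 and Nrxn3. In Smo/Smo against Wildtype 2 of 7 did not overlap, Cbln3 higher and Grid1 lower, against 15.9% of all genes, 7.82% higher and 8.12% lower. In SmoA2 against Smo/Smo it was also 2 of 7, Cbln4 higher and Cbln3 lower, against 18.2% of all genes, 8.12% higher and 10.1% lower. Cbln1, Nrxn2 and Nrxn3, separated in SmoA2 against Wildtype, differed there by no more than 0.21 on the log2 scale.

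Some markers of Purkinje cells, GABAergic interneurons, glia and meninges fell in SmoA2, where Grid1, Nrxn2 and Nrxn3 had lower values without a call, and their part in those values was not tested. Over all genes, 1.73% were called lower and 0.961% higher in SmoA2 against Wildtype. Of 13 Purkinje cell markers, 4 were called lower and 0 higher in SmoA2 against Wildtype, Pcp2, Rora, Lhx5 (-0.66 ± 0.076, adjusted p = 0.0026) and Dab1, the adaptor of reelin signalling (-0.50 ± 0.069, adjusted p = 0.00625). Their summed intensity was 24444 to 25643 in Wildtype, 17833 to 21133 in SmoA2 and 24830 to 25776 in Smo/Smo. Of 8 markers of GABAergic interneurons, 5 were called lower and 0 higher, Gad1, Ptf1a, Slc32a1, Pax2 (-0.75 ± 0.068, adjusted p = 7.996e-04) and Tfap2b (-0.58 ± 0.071, adjusted p = 0.00356), with sums of 8695 to 9648, 6271 to 6606 and 8491 to 9042. Of 9 markers of early postmitotic granule neurons none was called in either mutant against Wildtype, with 5 at an unadjusted p under 0.05 in SmoA2 and 0 in Smo/Smo in limma, and the sums were 31159 to 32070, 27616 to 29409 and 30193 to 31531. Of 11 markers of Bergmann glia and astrocytes 3 were called lower in SmoA2, Gjb6, Gdf10 (-0.59 ± 0.062) and Wif1 (-1.21 ± 0.12), with sums of 40847 to 42830, 36963 to 38268 and 41573 to 42298. Of 10 meningeal markers 7 were called lower, among them Slc22a6 (-1.42 ± 0.12) and Aldh1a2 (-1.57 ± 0.15), with sums of 9792 to 10183, 6530 to 7887 and 9327 to 9662. Fold changes in SmoA2 were above 0 for 1 of 13 Purkinje, 0 of 8 GABAergic and 1 of 9 early granule neuron markers. They were above 0 for 2 of 11 glial markers and 1 of 10 meningeal markers, the latter at 0.38. In each of these 2 lists 1 gene lay above Wildtype without overlap, where 8.89% of all genes did. In Smo/Smo against Wildtype none of these lists had a call, with 0 to 3 genes of each at an unadjusted p under 0.05 in limma.

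The other genes of the pathway were read from 3 lists with 47 measured members. In SmoA2 against Wildtype 2 of the 47 rose and 2 fell, against 2.69% of all genes, and the median log2 fold change was -0.064. In Smo/Smo against Wildtype none was called, against 0.371% of all genes, with a median of -0.021. In SmoA2 against Smo/Smo 1 was higher and 2 were lower, against 2.56% of all genes, with a median of -0.007. An unadjusted p under 0.05 in limma was found for 16, 3 and 10 of the 47 in these comparisons, in this order. Over all 19147 genes the counts were 2832, 1679 and 2741.

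**Figure D4:**
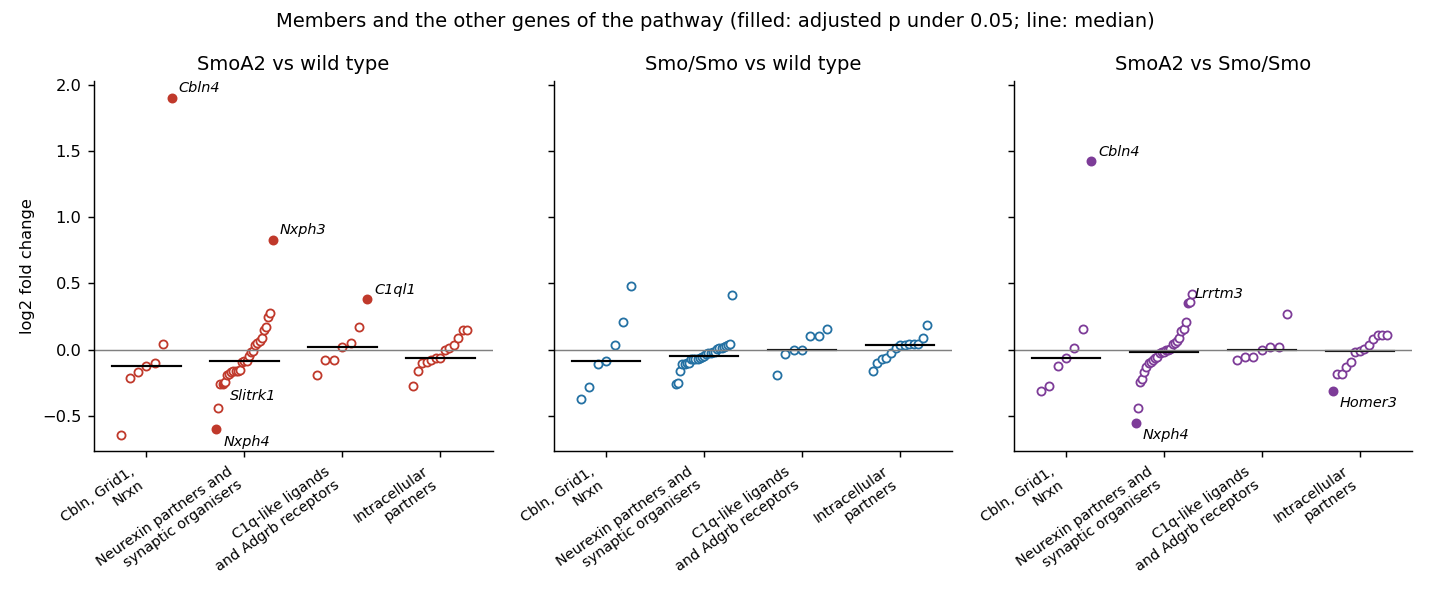
Log2 fold change of each of the 7 genes and of the 47 other genes of the pathway, in 4 columns ordered by value, with the median of each column as a line. Filled points have an adjusted p under 0.05 and carry the gene name: Nxph3, C1ql1, Nxph4 and Slitrk1 beside Cbln4 in SmoA2 against Wildtype, and none in Smo/Smo.

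Of 27 extracellular partners of neurexins and related synaptic organisers, 1 rose and 2 fell in SmoA2 against Wildtype, with a median log2 fold change of -0.083. The neurexophilins, secreted ligands that bind alpha-neurexins, moved in opposite ways. Nxph4 read 9.27, 9.43 and 9.18 in Wildtype, 8.66, 8.85 and 8.59 in SmoA2, and 9.29, 9.23 and 9.22 in Smo/Smo. SmoA2 lay below the other groups on every array, at a log2 fold change of -0.60 ± 0.086 against Wildtype (adjusted p = 0.00741) and -0.55 ± 0.086 against Smo/Smo (adjusted p = 0.0123). Nxph4 was called against Wildtype whichever of the 9 arrays was omitted (adjusted p 0.00617 to 0.0352), but against Smo/Smo the call ended without SmoA2 replicate 1 and without Smo/Smo replicate 1 or 2 (adjusted p up to 0.0565).

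Nxph3 read 7.44, 7.65 and 7.39 in Wildtype, 8.23, 8.04 and 8.71 in SmoA2, and 8.10, 7.79 and 7.82 in Smo/Smo. Both mutant groups lay above Wildtype on every array. The rise in SmoA2 was 1.77-fold (log2 fold change 0.83 ± 0.16, adjusted p = 0.0324), and Smo/Smo stood at 0.41 ± 0.16 (adjusted p = 0.511). Omitting 1 array ended the call in SmoA2 in 6 of 9 cases (adjusted p up to 0.117), those without Wildtype replicate 1, 2 or 3, SmoA2 replicate 1, or Smo/Smo replicate 2 or 3. Nxph1 had -0.18 ± 0.078 in SmoA2 (adjusted p = 0.334).

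Slitrk1, a postsynaptic organiser that binds receptor tyrosine phosphatases, read 8.93 to 9.01 in Wildtype and 8.69 to 8.77 in SmoA2. It fell by 0.26 on the log2 scale (SE 0.055, adjusted p = 0.0419), a call lost whichever of the 9 arrays was omitted (adjusted p 0.0554 to 0.163). Lrrtm3, a leucine-rich repeat partner of neurexins, read 10.64 to 10.77 in Wildtype, 10.93 to 11.12 in SmoA2 and 10.59 to 10.69 in Smo/Smo. It was higher in SmoA2 than in Smo/Smo by 0.35 ± 0.070 (adjusted p = 0.0359), while against Wildtype 0.28 ± 0.070 was not called (adjusted p = 0.0757). Its call against Smo/Smo held in 2 of the 9 fits that omit 1 array, those without Wildtype replicate 3 or SmoA2 replicate 3 (adjusted p otherwise up to 0.125), and the other 2 Lrrtm3 probe sets gave 0.051 and 0.35 there without a call. Of the uncalled organisers, the calsyntenin gene Clstn2 stood at -0.44 ± 0.11 in SmoA2 against Wildtype (adjusted p = 0.0757), Il1rapl1 at 0.25 ± 0.087 (0.211) and the phosphatase gene Ptprd at 0.17 ± 0.062 (0.249). The neuroligins Nlgn1, Nlgn2 and Nlgn3, the postsynaptic partners of neurexins, had log2 fold changes of -0.013, -0.15 and -0.26 in SmoA2 and were not called in any comparison.

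Of 7 C1q-like ligands and Adgrb receptors, 1 rose in SmoA2 against Wildtype. C1ql1, the relative of the cerebellins that climbing fibres supply to Purkinje cells, read 7.39, 7.50 and 7.29 in Wildtype, 7.76, 7.69 and 7.86 in SmoA2, and 7.54, 7.50 and 7.44 in Smo/Smo. SmoA2 lay above both other groups, and C1ql1 rose 1.3-fold against Wildtype (log2 fold change 0.38 ± 0.073, adjusted p = 0.03). Omitting 1 array ended that call in 6 of 9 cases (adjusted p up to 0.109), those without Wildtype replicate 1 or 3, SmoA2 replicate 1 or 3, or Smo/Smo replicate 2 or 3. Its receptor gene Adgrb3 stood at -0.081 ± 0.066 in SmoA2 (95% interval -0.23 to 0.068). Adgrb2 stood at -0.19 ± 0.070 in both mutants against Wildtype, Adgrb1 at -0.079 and C1ql2 at 0.17 in SmoA2, all without a call.

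Of 13 measured intracellular partners of neurexins and delta receptors, none was called in SmoA2 against Wildtype, with 4 at an unadjusted p under 0.05 in limma. Homer3, a postsynaptic scaffold gene of Purkinje cells, read 9.68, 9.72 and 9.69 in Wildtype, 9.42, 9.34 and 9.52 in SmoA2, and 9.77, 9.78 and 9.67 in Smo/Smo. It was lower in SmoA2 than in Smo/Smo by a log2 fold change of -0.31 ± 0.064 (adjusted p = 0.041), a call that held in 1 of the 9 fits that omit 1 array, the fit without SmoA2 replicate 3 (adjusted p otherwise up to 0.155). Against Wildtype it stood at -0.27 ± 0.064 (adjusted p = 0.0684). The neurexin adaptors Apba1 and Apba2 stood at -0.16 ± 0.059 and 0.15 ± 0.060, and Lin7a at 0.15 ± 0.061, none of them called.

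**Figure D5:**
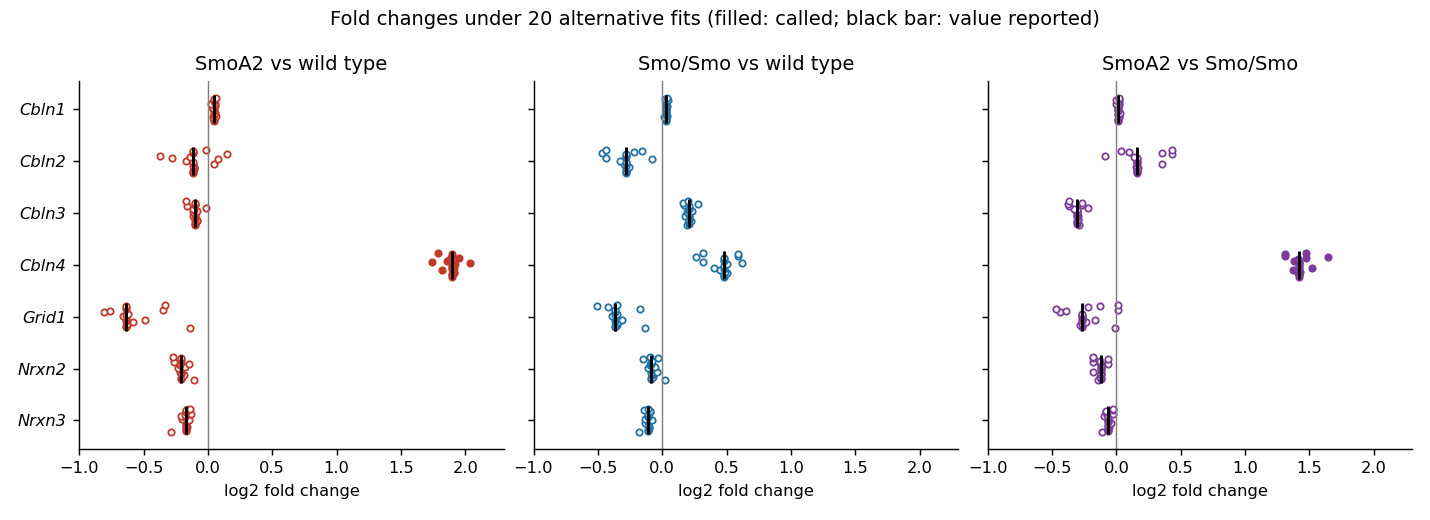
Log2 fold change of each of the 7 genes in the 3 comparisons under 20 alternative fits (points, filled where called) and as reported (black bars). The Cbln4 points stay filled in SmoA2 against Wildtype (1.74 to 2.04) and against Smo/Smo (1.31 to 1.64), and no point of the other 6 genes is filled.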

How the data were processed

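The deposited table held 1 probe set intensity per array for 38385 probe sets, summarised by RMA per the submitters' processing notes, which give no version. The values were on a linear scale (3.99 to 21515), and log2 was taken of the deposited intensities. The platform annotation gave 24478 probe sets a single symbol, for 19147 genes. limma 3.58.1 (lmFit, eBayes; R 4.3.3) estimated 3 group means in a single fit of the 9 arrays, with Benjamini-Hochberg adjustment over 19147 genes. Dimmer probe sets were read from a fit of every probe set. Errors of fold changes are standard errors. Alternatives changed the probe set rule, filter, scaling, pseudocount, variance model, threshold, groups fitted or arrays. Named were all members, called pathway genes and up to 4 more per list, 2 genes per marker list, and the 3 highest Pearson r per member. The Nlgn genes, further called markers and the tissue check genes were added after their values were seen. Members and lists were chosen with earlier results of these data known. Tested on simulated data, the script recovered 67.8% of log2 changes of 0.5 and 98.9% of changes of 1 (SmoA2 against Wildtype, 19147 genes). Of the simulated calls 4.3% were false. The simulation changed 200 genes and drew independent noise, equal on all arrays for a gene. Recovery in the real arrays, which differ in weight, can be lower.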

Additional observations from a re-analysis of the deposited data

How the results depend on the processing

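The 21 fold changes of the 7 genes were recomputed under 20 alternatives each. In 411 of these values direction and call were as reported, in 9 the direction turned, and no member gained or lost a call. Part of the 411 had their direction fixed in advance, because some alternatives can change only the call and not the fold change. They are the fit of every probe set, the filter, the trended and robust variance, the threshold and the 2 groups alone. Omitting an array of the group outside a comparison is of the same kind. The turned values, none of them called, concern small differences, and the cause was not tested. Cbln2 in SmoA2 against Wildtype became 0.046 with array weights, 0.080 without Wildtype replicate 2 and 0.15 without SmoA2 replicate 3 (range without 1 array -0.37 to 0.15), and against Smo/Smo -0.089 without SmoA2 replicate 2 (-0.089 to 0.43). Nrxn2 in Smo/Smo against Wildtype became 0.022 with the mean of all probe sets. Cbln1 in SmoA2 against Smo/Smo became -0.007 without SmoA2 replicate 2 and -0.001 without Smo/Smo replicate 2 (-0.007 to 0.021). Grid1 in SmoA2 against Smo/Smo became 0.015 without SmoA2 replicate 3 (-0.47 to 0.015), and 0.015 when Wildtype replicate 3 was left out as well.

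Counts of called genes among the 47 other pathway genes moved more. In SmoA2 against Wildtype (4 as reported) they were 7 with genes of mean log2 under 6 left out, 7 with a trended and robust variance, 1 with the 2 groups alone, 1 at an adjusted p under 0.01, 1 without Wildtype replicate 3 and SmoA2 replicate 3, and 1 to 4 without 1 array. In SmoA2 against Smo/Smo (3 as reported) they were 7, 5, 1, 0 and 1 in the same order, 6 with a pseudocount of 16, and 0 to 3 without 1 array. The filter, the fit of 2 groups alone and the arrays left out change how many genes or samples are tested. The stricter threshold can only lower the count. The cause of the other shifts was not tested.

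No paired analysis was possible because the animal codes do not pair mice across groups and the replicate numbers follow accession order only. The number of arrays, 3 per group, limits the precision, and no detection calls were used here.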
